A study of Homo sapiens with 3 samples.

Results

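Interferon-stimulated genes were examined in MDA-MB-231 cells that made 1 of 3 forms of the corepressor KAP1. The list holds 48 genes named for their known response to interferon, chosen by symbol, and all 48 had a line among the 19049 genes of the deposited table. MDA-MB-231 is an established line from a human basal-like breast cancer. In every library the cells had been depleted of their own KAP1 with a short hairpin RNA, and KAP1 was then re-expressed in the wild-type form (wt), as S473A or as S473D. S473A carries alanine at the site, so no phosphate can be added there, and S473D carries aspartate, a charged residue that mimics a phosphate. The labels give 1 library of each form and name no separate cultures or clones. No replicate error exists, so no p-value is given and every difference describes a pair of libraries.

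Interferons are secreted proteins that cells release after sensing foreign nucleic acid. Type I interferon binds the receptor chains IFNAR1 and IFNAR2, the kinases JAK1 and TYK2 are activated, and STAT2 and IRF9 enter the nucleus in the complex ISGF3, which binds response elements in the promoters of interferon-stimulated genes. The products block entry, translation and replication of viruses, tag proteins with the ubiquitin-like ISG15, or raise sensing and antigen presentation. KAP1, encoded by TRIM28, is brought to chromatin by KRAB zinc finger proteins and silences endogenous retroviruses, whose transcripts can be sensed as foreign RNA in other settings.

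The interferon-stimulated response element has the core GAAANNGAAA, which reads TTTCNNTTTC on the opposite strand. Promoter windows of 300 bases, 250 before and 50 after an annotated start, came from RefSeq in build GRCh38.p14, and 38 of the 48 genes had at least 1 window. The core was found on either strand, overlapping matches counted, in 31 of their 52 windows (59.6%), against 3.57% of all 35116 windows. Counted by gene, 26 of the 38 genes (68.4%) held it in some window, against 4.38% of all 27305 gene symbols with a window. The windows below are printed 5′ to 3′ on the gene's strand with the core in capitals. They are shown because the first 6 belong to genes with higher values in S473D than in wt, OAS3 and DTX3L had lower values there, and PARP9 and DTX3L share a site.
ISG15: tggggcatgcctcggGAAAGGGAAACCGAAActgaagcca
IFI44: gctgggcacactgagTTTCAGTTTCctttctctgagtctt
ISG20: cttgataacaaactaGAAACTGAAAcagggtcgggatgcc
IFIT1: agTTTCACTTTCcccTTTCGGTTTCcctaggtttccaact
IFI6: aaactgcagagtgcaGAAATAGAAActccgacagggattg
PLSCR1: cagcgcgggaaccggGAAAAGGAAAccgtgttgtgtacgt
OAS3: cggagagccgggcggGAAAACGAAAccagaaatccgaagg
PARP9: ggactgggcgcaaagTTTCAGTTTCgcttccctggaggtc
DTX3L: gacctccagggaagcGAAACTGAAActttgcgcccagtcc

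In GRCh38.p14 the ISG15 window lies at chr1:1013369-1013408 on the plus strand and holds 2 overlapping matches. The IFI44 window lies at chr1:78649756-78649795 (plus), the ISG20 window at chr15:88638932-88638971 (plus) and the IFIT1 window, with 2 separate matches, at chr10:89392505-89392544 (plus). The windows of IFI6 at chr1:27672261-27672300 and of PLSCR1 at chr3:146544662-146544701 are on the minus strand, and that of OAS3 at chr12:112938447-112938486 is on the plus strand. PARP9 (minus) and DTX3L (plus) are transcribed in opposite directions from the same stretch, chr3:122564317-122564356, so their windows are each other's reverse complement and hold the same single site. The core occurred in genes that were higher and in genes that were lower in S473D, and a match of letters does not show binding. In the map of sites, the match farthest from a start lay 164 bases before it.

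**Figure D1:**
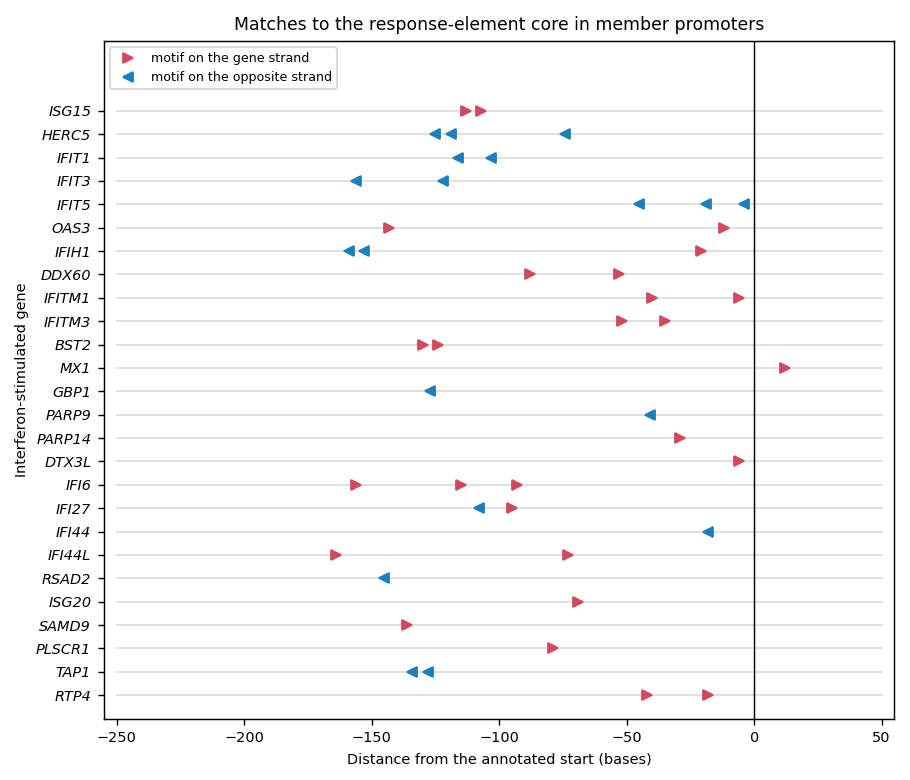
Positions of the response-element core in the promoter windows of the 26 interferon-stimulated genes that held it, in bases from the annotated start (1 window per gene, the first one listed with a match). Red and blue arrowheads mark the first base of matches on the gene's strand and on the opposite strand. Every gene but MX1 has these first bases before the start, and a match in each of IFIT5, IFITM1 and DTX3L runs across it.

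The table gives log2 values of RPKM, reads scaled by gene length and depth, after an offset of 0.1. Depth, estimated from the steps between low values, came to 25800000 reads (wt), 29500000 reads (S473A) and 24000000 reads (S473D). TRIM28, the gene depleted and put back, stood at 28.7 RPKM with wt, 32.3 with S473A and 25.6 with S473D, which does not separate endogenous from re-expressed transcript. Markers of the line were as labelled, with VIM at 673 to 740 RPKM, ESR1 at no more than 0.240 and PGR at no more than 0.00379, in any library. Of 5 leukocyte markers 3 were analysed, PTPRC at 0.0264 RPKM with wt and listed at 0 in the other libraries, CD14 at no more than 0.175, and CD68, which tumour cells also express, at 36.7 to 51.6. The endothelial markers PECAM1 and CDH5 summed to 0.0950 to 0.170 RPKM. In such bulk libraries fewer cells that express a gene and less RNA per cell cannot be told apart. All differences were taken as log2(RPKM + 1), a scale that shrinks those of low genes, over the 11580 genes whose mean reached 1 RPKM. Ratios are of RPKM, and their exact 95% intervals, from estimated read numbers, cover counting error only.

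Of the 48 genes, 33 passed that mean and 15 did not. The 15 low genes include several that respond most widely to interferon in other cells. MX1, a dynamin-like GTPase that blocks incoming viruses, stood at 0.137 RPKM with wt, 0.150 with S473A and 0.0860 with S473D, and its relative MX2 at 0.144, 0.0802 and 0.0281. IFI44L had 0.0264, 0.0231 and 0.0638 RPKM, and IFI27 0.0597, 0.104 and 0.0644. These levels rest on few reads, an estimated 1 to 15 per library for the 4 genes. RSAD2, which encodes the antiviral enzyme viperin, was listed at 0 in S473D, where 0 reads allow up to 0.0355 RPKM, and CMPK2, a mitochondrial nucleotide kinase gene beside it, was listed at 0 in wt, which allows up to 0.0403 RPKM. XAF1, TRIM22, BST2, RTP4 and USP18, the last the protease that removes ISG15, were also under 0.3 RPKM in every library. OAS1 (0.345 to 0.478 RPKM), OAS2 (0.601 to 0.677), IFIH1 (0.688 to 0.883) and SAMD9L (0.782 to 1.0) were the other genes that did not pass. No difference between libraries is drawn from these 15 genes.

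The highest level belonged to IFITM3, which encodes a membrane protein that traps entering viruses in endosomes, at 368 RPKM with wt, 342 with S473A and 327 with S473D. IFITM2 followed at 69.3, 69.6 and 72.6 RPKM. The other 46 genes summed to 245 RPKM with wt, 233 with S473A and 288 with S473D. Within these sums, ISG15 gave 32.2 RPKM with wt and 70.2 RPKM with S473D. The total over all 19049 genes was also highest in S473D, at 393381 RPKM against 330667 with wt and 330916 with S473A. Much of the rise of the 46 genes over wt is that of ISG15. With IFITM3 and IFITM2 counted, the 48 genes summed to 681 RPKM with wt, 645 with S473A and 688 with S473D. Whether the higher sum of the 46 genes in S473D is particular to them was not tested. The plot of levels shows that most of the 33 genes lay between 1 and 20 RPKM in all libraries.

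**Figure D2:**
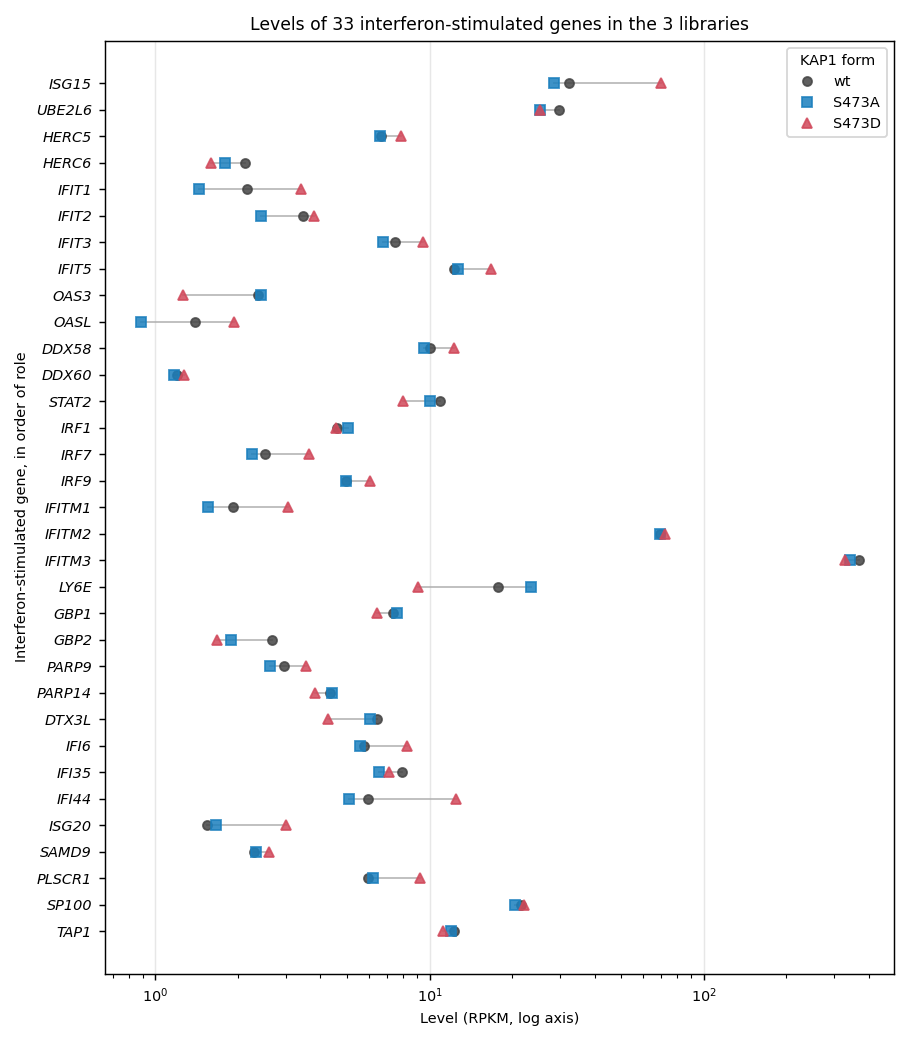
Levels of the 33 interferon-stimulated genes that passed the mean of 1 RPKM, by role, in RPKM on a log axis, with 1 symbol per library (circle wt, square S473A, triangle S473D) and a grey line over their range. ISG15, IFI44 and IFIT1 have their triangle to the right of the other symbols, and LY6E and OAS3 have it to the left.

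Between S473D and wt the genes went both ways around a small median shift upward. Their median difference was 0.11, against -0.10 for all 11580 genes, and 20 of 33 were higher in S473D and 13 lower, where 39.3% of all genes were higher and 60.7% lower. At least 1.5-fold higher on log2(RPKM + 1) were 3 of 33 (ISG15, IFI44 and ISG20), beside 6.82% of all genes. At least 1.5-fold lower was 1 of 33 (LY6E), beside 3.23%. On the same scale ISG15 was the only one at least 2-fold higher, beside 0.993% of all genes. None was 2-fold lower, beside 0.095%. The counting interval of the RPKM ratio lay above 1 for 15 of the 33 genes, beside 27.0% of all genes with a matched transcript, and below 1 for 10, beside 45.2%. The median of all genes lay 0.10 below 0, and centring on it gave the 33 genes a median of 0.21.

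Between S473A and wt the differences were smaller and mostly downward. The median was -0.07, against 0.00 for all genes, and 22 of 33 genes were lower in S473A and 11 higher, beside 50.2% and 49.8% of all genes. On log2(RPKM + 1) none of the 33 reached 1.5-fold in either direction, beside 0.095% of all genes higher and 0.147% lower. None reached 2-fold, beside 0.00864% of all genes in either direction. The counting interval lay below 1 for 8 of the 33 genes, beside 7.81% of all genes, and above 1 for LY6E alone, beside 7.58%. The lowest were IFIT2 (-0.38), IFIT1 (-0.37), OASL (-0.35) and GBP2 (-0.34).

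Between S473D and S473A the median was 0.11, against -0.10 for all genes, and 22 of 33 genes were higher in S473D and 11 lower, beside 39.3% and 60.7% of all genes. At least 1.5-fold higher on log2(RPKM + 1) were 6 of 33 (ISG15, IFI44, IFIT1, IFITM1, OASL and ISG20), beside 6.86% of all genes. LY6E and OAS3 were at least 1.5-fold lower, beside 3% of all genes. On the same scale ISG15 and IFI44 were over 2-fold higher and LY6E over 2-fold lower, beside 1% and 0.13% of all genes. Ratios of RPKM, given below, are larger for low genes such as IFIT1 and OASL. The counting interval lay above 1 for 17 genes and below 1 for 7, beside 27.6% and 45.8% of all genes. The 3 comparisons share libraries and are not independent of each other.

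**Figure D3:**
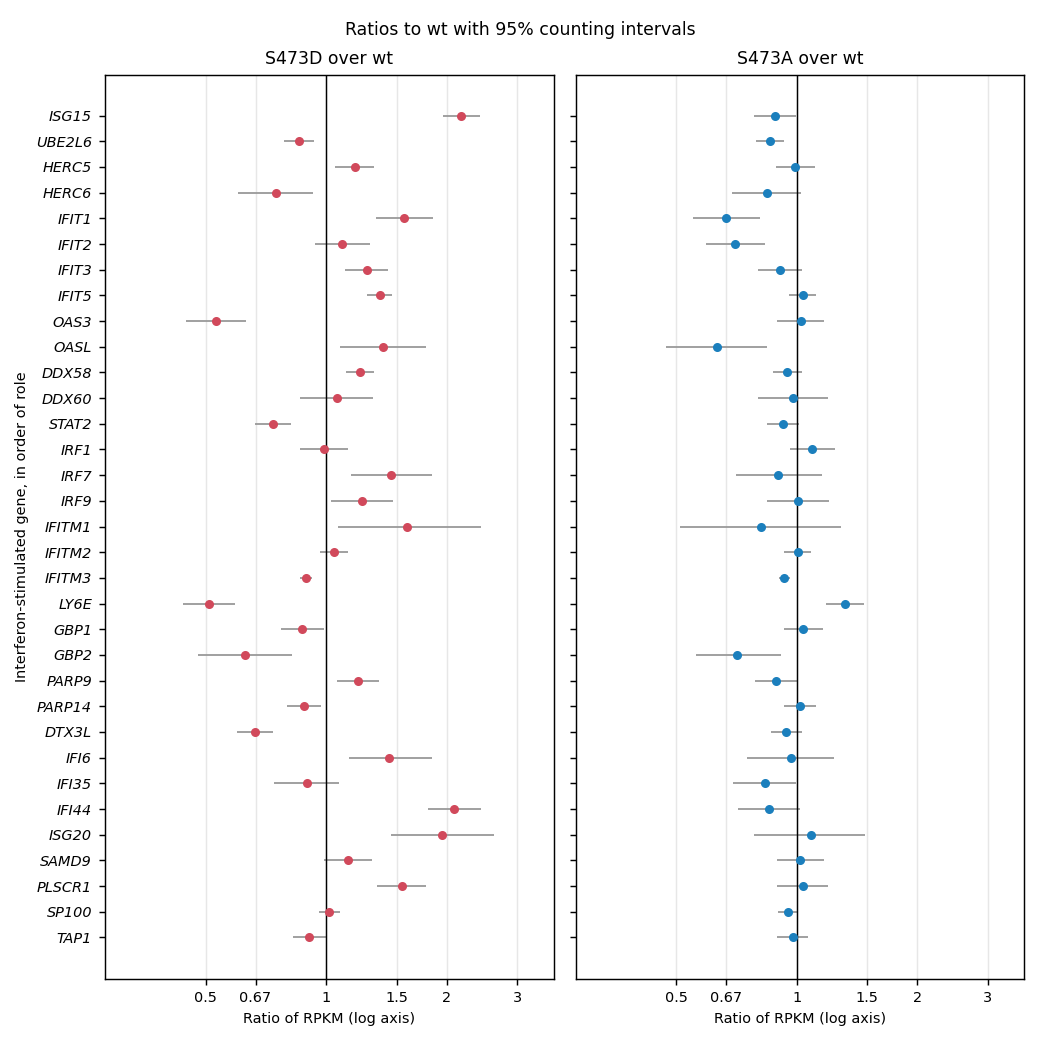
Ratios of RPKM to wt for S473D (left, red) and S473A (right, blue) for the 33 interferon-stimulated genes, on a log axis with exact 95% intervals for counting error only. In S473D the points run from 0.510 for LY6E to 2.18 for ISG15, while in S473A all but LY6E lie at or below 1.09.

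Genes of ISG15 conjugation did not move together. ISG15, a ubiquitin-like protein that is also secreted, stood at 32.2 RPKM with wt, 28.5 with S473A and 70.2 with S473D. The S473D library was the high one, 2.18-fold above wt (interval 1.96 to 2.42) and 2.46-fold above S473A (2.22 to 2.74). With fitted trends along transcript length and GC content removed, its log2 differences went from 1.10 to 0.59 against wt and from 1.27 to 0.76 against S473A. UBE2L6, the enzyme that carries ISG15 to its targets, was instead highest in wt, at 29.6 RPKM against 25.3 in S473A and 25.4 in S473D, a difference of -0.21 between S473D and wt that became -0.37 with the trends removed. HERC5, the main ISG15 ligase, had 6.67, 6.60 and 7.86 RPKM in wt, S473A and S473D, and its neighbour HERC6 2.13, 1.79 and 1.60. UBA7, the enzyme that activates ISG15, missed the mean of 1 RPKM, at 1.06 with wt, 0.645 with S473A and 0.490 with S473D.

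The IFIT genes, whose products bind viral RNA that lacks host cap marks, were lowest in S473A for all members but IFIT5 and highest in S473D for all 4. IFIT1 stood at 2.16 RPKM with wt, 1.44 with S473A and 3.38 with S473D. Its S473D value was 1.57-fold above wt (interval 1.33 to 1.84) and 2.35-fold above S473A (1.97 to 2.81). IFIT2 had 3.46, 2.43 and 3.80 RPKM in wt, S473A and S473D, and its S473D and wt values differed by less than counting error (ratio 1.10, interval 0.937 to 1.29). IFIT3, which stabilises IFIT1, had 7.47, 6.77 and 9.44 RPKM. IFIT5 had 12.3, 12.7 and 16.7 RPKM, a ratio of 1.36 between S473D and wt (1.26 to 1.47). With the length and GC trends removed, the differences between S473D and wt went from 0.11 to -0.01 for IFIT2, from 0.30 to 0.13 for IFIT3 and from 0.41 to 0.26 for IFIT5, while IFIT1 had 0.45.

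In the OAS family, whose enzymes make the messenger that activates RNase L, the 2 measurable genes went opposite ways. OAS3 stood at 2.37 RPKM with wt, 2.42 with S473A and 1.26 with S473D, so wt was 1.88-fold above S473D (interval 1.59 to 2.24). On the log2 scale that is a difference of -0.58, just short of 1.5-fold, and -0.27 with the length and GC trends removed. OASL, an inactive relative that boosts RNA sensing, stood at 1.40 RPKM with wt, 0.882 with S473A and 1.93 with S473D. Its S473D value was 2.19-fold above S473A (1.67 to 2.90).

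Among RNA sensors, DDX58, which encodes RIG-I, had 10.1 RPKM with wt, 9.55 with S473A and 12.2 with S473D, a ratio of 1.21 to wt (interval 1.12 to 1.32). DDX60, a helicase that aids RIG-I, had 1.19, 1.17 and 1.27 RPKM, within counting error of each other.

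Among the transcription factors, the ISGF3 subunits STAT2 and IRF9 went opposite ways in S473D. STAT2 stood at 10.9 RPKM with wt, 10.1 with S473A and 8.02 with S473D, so wt was 1.36-fold above S473D (interval 1.23 to 1.51). IRF9, its DNA-binding partner, stood at 4.94, 4.97 and 6.08 RPKM, a ratio of 1.23 (1.03 to 1.47), and its difference went from 0.25 to 0.15 with the length and GC trends removed. IRF7, which drives interferon genes, had 2.50, 2.24 and 3.64 RPKM, a ratio of 1.46 to wt (1.16 to 1.84). IRF1, a factor that interferon gamma induces most, was level at 4.60, 5.03 and 4.55 RPKM, and its small difference between S473D and wt (-0.01) changed sign under each other scaling.

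Among membrane restriction factors, LY6E had the largest difference downward of the 33 genes in S473D. LY6E, which encodes a lipid-anchored protein that blocks coronavirus fusion, stood at 17.8 RPKM with wt, 23.5 with S473A and 9.09 with S473D. The 3 libraries were apart beyond counting error, S473A 1.32-fold above wt (interval 1.18 to 1.47) and wt 1.96-fold above S473D (1.69 to 2.28). S473A was 2.59-fold above S473D (2.24 to 2.98). IFITM1, the family member at the cell surface, had its highest value in S473D, at 1.91, 1.55 and 3.05 RPKM, a ratio of 1.59 to wt (1.07 to 2.44), but its difference from wt turned from 0.48 to -0.02 with the length and GC trends removed. IFITM1, IFITM2 and IFITM3 are near-identical in parts of their sequence, so reads may be shared and their values are uncertain.

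The guanylate-binding GTPases GBP1 and GBP2, which attack vacuoles that hold pathogens, were lowest in S473D. GBP1 had 7.35 RPKM with wt, 7.62 with S473A and 6.41 with S473D, and GBP2 had 2.66, 1.89 and 1.67. The S473D and S473A values of GBP2 were within counting error. With the length and GC trends removed, the difference between S473D and wt went from -0.17 to -0.29 for GBP1 and from -0.45 to -0.61 for GBP2. GBP2 was 1.59-fold higher in wt than in S473D (interval 1.22 to 2.09) and 1.41-fold higher in wt than in S473A (1.10 to 1.79).

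In the ADP-ribosylation module, PARP9 and its partner ubiquitin ligase DTX3L went opposite ways although they share the site printed above. PARP9 stood at 2.94 RPKM with wt, 2.61 with S473A and 3.53 with S473D, a ratio of 1.20 between S473D and wt (interval 1.06 to 1.35). DTX3L stood at 6.44, 6.06 and 4.27 RPKM, and wt was 1.51-fold above S473D (1.36 to 1.67). PARP14, a related enzyme, had 4.33, 4.41 and 3.82 RPKM. With the length and GC trends removed the differences between S473D and wt were 0.29 for PARP9 and -0.40 for DTX3L, and that of PARP14 went from -0.15 to -0.02.

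IFI44, a cytoplasmic protein gene, followed ISG15 among the genes with higher values in S473D. It stood at 5.97 RPKM with wt, 5.09 with S473A and 12.5 with S473D, 2.09-fold above wt (interval 1.79 to 2.43) and 2.45-fold above S473A (2.10 to 2.86). IFI6, which encodes an endoplasmic reticulum protein that limits flavivirus replication, had 5.78, 5.58 and 8.30 RPKM, a ratio of 1.44 to wt (1.14 to 1.83). With the length and GC trends removed, the differences from wt went from 0.95 to 0.49 for IFI44 and from 0.46 to -0.01 for IFI6, which turned sign. IFI35 had 7.91, 6.57 and 7.10 RPKM, and its S473D and wt values differed by less than counting error.

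Of the remaining effectors, ISG20, an exonuclease that degrades viral RNA, was highest in S473D, with 1.54 RPKM with wt, 1.67 with S473A and 3.01 with S473D. It was 1.95-fold above wt (interval 1.45 to 2.62). PLSCR1, a phospholipid scramblase that blocks viral entry, had 5.98, 6.20 and 9.25 RPKM, a ratio of 1.55 to wt (1.34 to 1.78). Its difference from wt went from 0.55 to 0.23 with the length and GC trends removed. SP100, a nuclear body protein gene, had 21.6, 20.5 and 22.0 RPKM. TAP1, the peptide transporter subunit of antigen presentation, had 12.3, 12.0 and 11.2, and SAMD9, which restricts poxviruses, 2.28, 2.33 and 2.59. These last 3 genes had S473D and wt values within counting error of each other.

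Transcript length moved with the differences between S473D and wt across all genes. Over 11329 genes with a matched transcript, Spearman's rho between the difference and transcript length was -0.44, and over the 33 interferon-stimulated genes it was -0.22. Genes within a library are not independent replicates, and both values describe the same pair of libraries. Among the 11 of the 33 genes under 2000 nt, the median difference was 0.25 and 7 were higher, while 2717 genes of that length had a median of 0.22 and 69.2% were higher. Among the 9 genes of at least 4000 nt, the median was 0.13 and 6 were higher, while 4251 genes of that length had a median of -0.23 and 19.6% were higher. The plot of differences against length shows ISG15, at 637 nt, among the shortest transcripts, and LY6E (1181 nt) below other genes of like length.

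**Figure D4:**
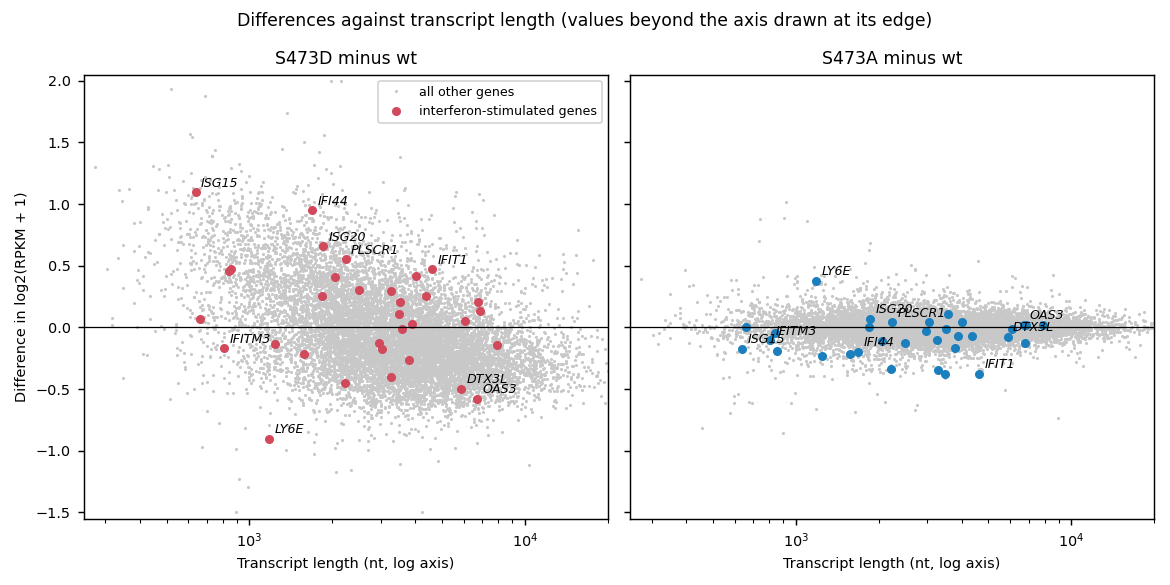
Difference in log2(RPKM + 1) from wt against transcript length in nt (log axis) for S473D (left) and S473A (right). Grey points are all other genes and coloured points the 33 interferon-stimulated genes, and the grey cloud slopes downward with length in S473D and lies flat in S473A.

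Smooth trends on length and GC content were removed from the differences as an alternative. The median of the 33 genes between S473D and wt became 0.00, against -0.10 for all genes. After that removal 17 of 33 were higher, beside 3930 of the 11329 genes with a matched transcript. ISG20 went from 0.66 to 0.55 and LY6E from -0.90 to -1.15. IFITM3 went from -0.17 to -0.65 and IFITM2 from 0.07 to -0.48. Between S473A and wt the median was -0.06 with the trends removed.

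Genes that held the response-element core in a promoter window had a median difference between S473D and wt of 0.21, with 13 of 19 higher. Those whose windows lacked it had a median of -0.08, with 3 of 8 higher, and 39.3% of all genes were higher. Between S473A and wt the medians were -0.03 and -0.09. These counts cover the 27 of the 33 genes with a window and are a description only. They were taken without removing the length and GC trends. That removal took the median of the 33 genes between S473D and wt from 0.11 to 0.00, while that of all genes stayed at -0.10. A link between the core and the differences was not tested.

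The rest of the interferon pathway was read from a list of 57 genes, of which 9, all ligands, were not analysed here and 40 passed the mean of 1 RPKM. The ligand gene IFNK was listed at 0 in wt and S473A and at 0.0365 RPKM in S473D. Between S473D and wt the median of the 40 genes was -0.10, the same as for all genes, and 11 of 40 were higher, beside 39.3% of all genes. B2M was the only one at least 1.5-fold apart on log2(RPKM + 1), beside 6.82% of all genes higher and 3.23% lower by that much. Between S473A and wt the median was 0.00 and none was 1.5-fold apart, beside 0.095% of all genes higher and 0.147% lower.

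Receptor genes were measured in all libraries. IFNAR1 stood at 9.19 RPKM with wt, 8.23 with S473A and 7.30 with S473D, and IFNAR2 was level at 5.38, 5.33 and 5.36. The interferon gamma receptor chains had higher values in S473D, IFNGR1 at 11.7, 12.0 and 15.7 RPKM (ratio to wt 1.34, interval 1.21 to 1.47) and IFNGR2 at 15, 15.3 and 17.8. With the length and GC trends removed, the difference from wt went from 0.39 to 0.16 for IFNGR1 and was 0.22 for IFNGR2. Of the signalling genes JAK1, TYK2 and STAT3, each was lowest in S473D. JAK1, a kinase of both receptor types, had 27.1, 27.0 and 22.5 RPKM. TYK2 had 16.8, 16.7 and 15 RPKM, and its difference between S473D and wt went from -0.15 to 0.12 with the length and GC trends removed. STAT3 had 21.3, 21.6 and 14.5 RPKM, wt 1.47-fold above S473D (1.38 to 1.56). With those trends removed, STAT3 went from -0.53 to -0.31 and JAK1 from -0.26 to -0.14.

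Of 9 genes that sense nucleic acid or relay the signal, 8 were lower in S473D than in wt, beside 60.7% of all genes. The exception was TBK1, the kinase that phosphorylates IRF3, at 13.2 RPKM with wt, 13.4 with S473A and 20.1 with S473D (ratio 1.52, interval 1.41 to 1.65). MAVS, the mitochondrial adaptor of RIG-I, stood at 13.5, 13 and 10.6 RPKM, and its difference of -0.33 became 0.01 with the length and GC trends removed. The difference for TICAM1 also changed sign there and on centring (-0.09 to 0.03 and to 0.01). The feedback inhibitor SOCS3 had 21.5, 22.8 and 16.4 RPKM, and SOCS1 1.43, 1.70 and 0.856. ADAR, which edits self RNA, had 41.4, 42.5 and 29.9 RPKM, and EIF2AK2, the translation-blocking kinase PKR, 14.5, 14.3 and 10.4. With the trends removed, the differences between S473D and wt went from -0.46 to -0.23 for ADAR and from -0.39 to -0.60 for SOCS1.

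Antigen presentation genes split by gene. B2M, the light chain of class I molecules, stood at 333 RPKM with wt, 321 with S473A and 690 with S473D, a ratio of 2.07 to wt (interval 2.02 to 2.13). B2M has a transcript of 943 nt, and its log2 difference went from 1.05 to 0.30 with the length and GC trends removed. HLA-C, a class I heavy chain, was level at 49.0, 47.3 and 48.1 RPKM, and reads may be shared among near-identical class I genes. The immunoproteasome genes PSMB8 (35.6, 35.4 and 43.8 RPKM) and PSMB10 (10.4, 10.2 and 14.7) were higher in S473D, and the peptide-loading factor TAPBP (26.5, 27.2 and 19.7) was lower. With the trends removed, their differences from wt went from 0.29 to 0.06 for PSMB8, from 0.45 to 0.19 for PSMB10 and from -0.41 to -0.20 for TAPBP. The plot by role shows B2M and TBK1 above the other pathway genes of their groups in S473D.

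**Figure D5:**
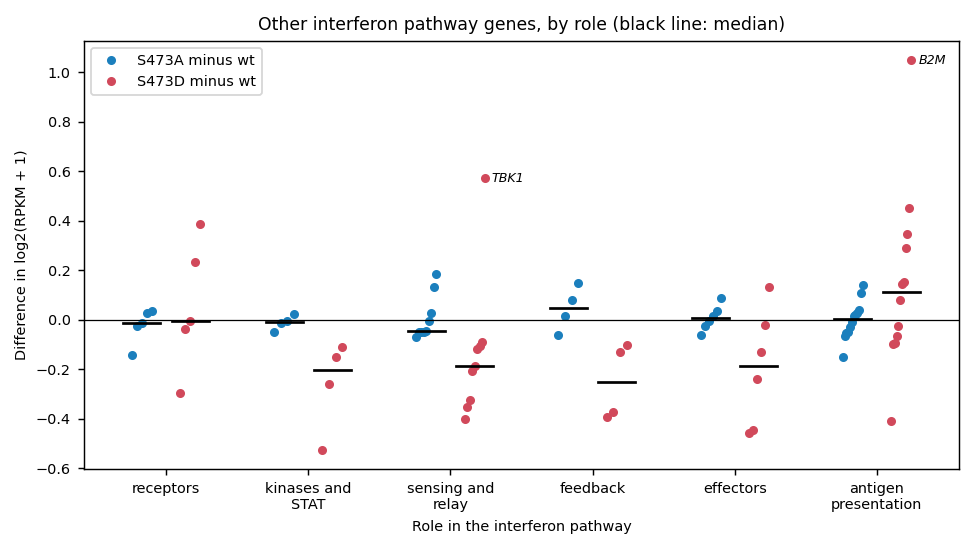
Differences from wt in log2(RPKM + 1) for the 40 interferon pathway genes outside the list, by role, with 1 point per gene (blue S473A, red S473D) and a black line at each median. The S473A points lie between -0.15 and 0.19, while the S473D points run from -0.53 for STAT3 to 1.05 for B2M.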

How the data were processed

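RNA was sequenced from 3 libraries, 1 per form of KAP1, each placed in its group by its title. Reads were handled with Bowtie and Partek on build hg19, per the submitters' processing notes; the sources used here state neither versions nor annotation, counting rule or strand. The authors deposited log2 values of RPKM in 1 table. Its lowest value is -3.32, the log2 of 0.1, so 0.1 was subtracted after undoing the log. Of 19076 lines, 27 with date-like or repeated symbols were left out, and 168 short RNAs past the mean of 1 RPKM. Since RPKM is a share of all reads, a gain in abundant transcripts lowers the others.

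Relative depth came from the modal ratio between values of 2700 low genes and absolute depth from GENCODE 29 transcript lengths, which may differ from the lengths the authors used, so read numbers and intervals are estimates, and count models were not used. The length was that of the longest transcript with a RefSeq record, otherwise the longest. Exact 95% intervals are Clopper-Pearson. Trends were removed by lowess (fraction 0.2, 2 rounds), keeping the overall median. Scripts were tested on simulated data. Python 3.11.15, scipy 1.17.1 and statsmodels 0.14.6 were used. Members and lists were chosen with earlier results of these data known. Folds with intervals were given for members at least 1.5-fold apart in any comparison and the 5 highest and 5 lowest of S473D minus wt with a mean of at least 5 RPKM. Other members and pathway genes were given such intervals after their values were seen. Values of some pathway genes are not reported here.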

Additional observations from a re-analysis of the deposited data

How the results depend on the processing

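The alternatives were pseudocounts of 0.1 and 0.5 RPKM, no filter, a mean of at least 5 RPKM, centring on the median of all genes, a trimmed mean of log ratios, and removal of length and GC trends. No paired analysis was possible because each group has 1 library, and no library could be left out. The medians of the interferon-stimulated genes kept their sign under every one of these, although that of S473D minus wt came to 0.00 with the trends removed and ranged from there to 0.21 after centring. Between S473D and wt, the number at least 1.5-fold higher was 3 in the reported analysis, 6 with a pseudocount of 0.1 and 1 with the trends removed. Of all genes, 6.82% were higher by that much in the reported analysis, and 198 of 11329 with the trends removed. The number at least 1.5-fold lower was 1, and became 3 with a pseudocount of 0.1, 2 with 0.5 and 3 with the trends removed (LY6E, IFITM3 and GBP2). Of all genes, 3.23% were lower by that much in the reported analysis, and 376 of 11329 with the trends removed. Between S473A and wt, 0 of the interferon-stimulated genes were lower by that much, beside 0.147% of all genes, and 1 with a pseudocount of 0.1. Between S473D and S473A, 6 were higher, 2 when the mean had to reach 5 RPKM and 10 after centring. Lower were 2, and 1 each with that minimum, after centring, with the trimmed mean and with the trends removed. With the trends removed 5 were higher, beside 193 of 11329 genes, and 392 of those 11329 were lower. Shares of all genes under the other settings are not given here. The minimum of 5 RPKM tests fewer genes; for the rest the cause was not tested. Of the differences of single named genes, 16 of 45 moved by more than their counting half-width with the trends removed, 4 with a pseudocount of 0.1 and 1 with the trimmed mean. With the trends removed, IFITM1 and IFI6 turned to -0.02 and -0.01 between S473D and wt, and UBE2L6 turned from 0.00 to -0.15 between S473D and S473A. Genes near 1 RPKM, and the 15 under it, are limited by depth.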

Other observations

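Several interferon-stimulated genes are neighbours among protein-coding genes in the RefSeq annotation, in 13 adjacent pairs. Some pairs differed in level or in direction, and others went the same way between S473D and wt. IFI44 stood at 12.5 RPKM in S473D, while IFI44L beside it stood at 0.0638 RPKM. OAS3, at 1.26 RPKM in S473D and 2.37 in wt, lies between OAS1 and OAS2, which were under 0.7 RPKM in every library. HERC5 and HERC6 went opposite ways between S473D and wt (0.21 and -0.27), as did PARP9 and DTX3L (0.20 and -0.50) and IFITM1 and IFITM3 (0.48 and -0.17). The same way went IFIT2 and IFIT3 (0.11 and 0.30), IFITM2 and IFITM1 (0.07 and 0.48), and GBP1 and GBP2 (-0.17 and -0.45). The differences of IFIT2 and IFITM2 were within counting error, and reads may be shared among the IFITM genes. With the length and GC trends removed, IFITM1 and IFITM3 went the same way (-0.02 and -0.65), and IFIT2 and IFIT3 opposite ways (-0.01 and 0.13). IFITM2 and IFITM1 were then both lower (-0.48 and -0.02), while the HERC, PARP9 and DTX3L, and GBP pairs kept their directions. The pairs with a gene under the mean of 1 RPKM were not compared in direction. IFIT1 and IFIT5, also adjacent, both had higher values in S473D (0.47 and 0.41), but differed in S473A against wt (-0.37 and 0.04).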
